A study of Mus musculus with 24 samples.

Results

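The unfolded protein response and the integrated stress response were followed through 36 genes in mouse kidney. The 36 genes were fixed by name and comprised 14 chaperones and folding enzymes of the endoplasmic reticulum (ER), 7 genes of ER-associated degradation, 3 genes of the ER membrane channel, 4 genes of the stress sensors and their transcription factors, and ATF4 with 7 genes it is known to act on or with. All 36 were found among the 22911 genes named on the arrays, and all 36 were well above background on all 24 arrays and entered the test, which covered 17736 genes.

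The kidneys came from male Crl:CD1(ICR) mice, an outbred stock, in 3 groups. The enarodustat group (9 mice) had received 90 mg/kg of alloxan, which destroys pancreatic beta cells, by intravenous injection 3 days before grouping, and then feed containing 0.01% by weight of enarodustat, a drug that stabilises hypoxia-inducible factor by blocking its prolyl hydroxylases. The DKD group (diabetic kidney disease, 9 mice) had received the same alloxan injection and normal feed. The sham group (6 mice) had received vehicle in place of alloxan and normal feed. The mice for both alloxan groups were chosen so as to match in blood glucose and body weight, and kidneys were taken 16 days after grouping. Diabetes here was chemically induced and at an early stage, and no ages were given in the sources used here. Total RNA of whole renal tissue was hybridised to Agilent arrays of 1 colour, 1 array per mouse. The RNA held all cell types of the tissue, so that fewer cells of a type and less RNA per cell cannot be told apart. The kidney label was borne out by the phosphate transporter gene Slc34a1 of the proximal tubule and by Umod of the thick ascending limb, both well above background on all 24 arrays.

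When unfolded proteins build up in the ER, the sensors IRE1 (gene Ern1), PERK (Eif2ak3) and ATF6 respond. IRE1 splices the Xbp1 mRNA, ATF6 is cut to release a transcription factor, and together these raise the genes of ER chaperones, of the membrane channel and of the machinery that pulls misfolded proteins out for destruction. PERK phosphorylates the initiation factor eIF2, which lowers protein synthesis in general while raising translation of ATF4, and the sensors of amino acid shortage, heme shortage and double-stranded RNA converge on the same step. ATF4 and the factors below it raise genes of amino acid supply, of redox control and of cell death. Because these sensors act through splicing, cleavage and translation, mRNA levels of the sensors themselves do not report their activity. In the kidney, tubule cells carry a large load of membrane and secreted proteins, and both arms are known to respond to toxins, ischaemia and diabetes.

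Promoter sequence was examined because 2 elements are known to connect these genes to their regulators. The ER stress response element (ERSE, searched by its consensus) is bound by NF-Y with ATF6 or XBP1, and the composite element of ATF4 with a C/EBP partner (CARE, searched as TGATGNAA) is found at amino acid response genes. Windows of 300 bases (250 before to 50 after the start of each gene, RefSeq, GRCm38.p6) were given for 31 of the 36 members, and both strands were searched. ERSE letters were found in 9 of the 31 (29.0%) and in 37 of all 27025 genes with a window (0.137%). They were found in 7 of 12 chaperone genes (Hspa5, Hsp90b1, Creld2, Dnajc3, Pdia6, Calr, Canx), in 2 of 6 degradation genes (Derl3 and Syvn1) and in 0 of 8 genes of the ATF4 group. CARE letters were found in 4 of the 8 genes of the ATF4 group (Asns, Atf3, Chac1, Trib3), in Herpud1, and in 4.51% of all genes. The related ERSE-II was found in Dnajb11 and Herpud1 and in 0.0444% of all genes, and the core of the unfolded protein response element (UPRE core, TGACGTG) in Hspa5 and in 2.22% of all genes. No matches of different motifs overlapped in the members' windows. A match of letters is a description of the window, not a mapped binding site. The 250 bases before the start are shown for 5 ERSE genes that fell in diabetic kidneys and 3 CARE genes, 5′ to 3′ on the strand of the gene, in lower case with the motif matches in capitals. Hspa5 lies at chr2:34771840-34772089, plus strand, and its capitals mark the UPRE core and then the ERSE. Hsp90b1 (chr10:86705445-86705694, minus strand) has an ERSE on each strand. Single ERSE matches are marked in Creld2 (chr15:88819396-88819645, plus strand), Derl3 (chr10:75893148-75893397, plus strand) and Pdia6 (chr12:17266339-17266588, plus strand). Single CARE matches are marked in Asns (chr6:7693210-7693459, minus strand), Chac1 (chr2:119350992-119351241, plus strand) and Atf3 (chr1:191183334-191183583, minus strand).
Hspa5: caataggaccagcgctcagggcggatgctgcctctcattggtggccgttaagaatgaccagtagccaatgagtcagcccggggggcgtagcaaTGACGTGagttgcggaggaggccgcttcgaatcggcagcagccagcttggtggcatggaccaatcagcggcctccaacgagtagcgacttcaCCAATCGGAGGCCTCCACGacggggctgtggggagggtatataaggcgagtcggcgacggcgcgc
Hsp90b1: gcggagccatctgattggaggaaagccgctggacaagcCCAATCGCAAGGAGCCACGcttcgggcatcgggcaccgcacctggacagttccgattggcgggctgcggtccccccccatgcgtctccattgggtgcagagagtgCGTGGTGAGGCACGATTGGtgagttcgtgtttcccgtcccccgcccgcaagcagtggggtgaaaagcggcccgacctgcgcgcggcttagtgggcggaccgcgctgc
Creld2: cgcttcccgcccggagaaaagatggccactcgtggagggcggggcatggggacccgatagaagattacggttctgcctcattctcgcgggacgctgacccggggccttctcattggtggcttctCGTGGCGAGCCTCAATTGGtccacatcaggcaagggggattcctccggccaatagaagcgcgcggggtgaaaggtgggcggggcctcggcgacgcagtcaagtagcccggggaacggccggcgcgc
Derl3: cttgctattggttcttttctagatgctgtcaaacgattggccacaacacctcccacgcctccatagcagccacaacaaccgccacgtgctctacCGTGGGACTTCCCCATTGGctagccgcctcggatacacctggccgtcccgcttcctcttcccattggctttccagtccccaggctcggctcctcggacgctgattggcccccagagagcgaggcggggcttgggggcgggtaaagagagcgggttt
Pdia6: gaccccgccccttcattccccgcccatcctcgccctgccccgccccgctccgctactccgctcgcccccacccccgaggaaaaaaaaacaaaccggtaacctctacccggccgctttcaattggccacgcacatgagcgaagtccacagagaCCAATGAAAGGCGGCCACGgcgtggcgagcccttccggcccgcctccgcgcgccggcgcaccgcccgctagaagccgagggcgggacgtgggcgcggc
Asns: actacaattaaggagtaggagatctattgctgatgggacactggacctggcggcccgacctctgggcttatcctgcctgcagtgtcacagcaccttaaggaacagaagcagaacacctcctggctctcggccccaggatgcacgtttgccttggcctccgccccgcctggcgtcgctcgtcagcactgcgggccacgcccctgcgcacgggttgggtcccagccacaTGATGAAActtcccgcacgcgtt
Chac1: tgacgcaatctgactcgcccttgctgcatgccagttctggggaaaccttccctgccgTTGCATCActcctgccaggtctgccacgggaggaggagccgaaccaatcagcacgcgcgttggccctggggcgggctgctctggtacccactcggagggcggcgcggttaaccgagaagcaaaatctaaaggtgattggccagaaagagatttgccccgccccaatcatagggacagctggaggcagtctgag
Atf3: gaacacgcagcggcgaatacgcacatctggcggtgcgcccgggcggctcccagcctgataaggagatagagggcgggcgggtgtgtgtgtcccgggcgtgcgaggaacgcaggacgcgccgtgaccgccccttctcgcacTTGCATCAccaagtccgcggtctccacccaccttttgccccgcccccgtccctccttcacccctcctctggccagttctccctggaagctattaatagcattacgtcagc
The first base of the ERSE lay 65 bases before the start in Hspa5, 98 in Pdia6, 126 in Creld2, 156 in Derl3, and 107 and 212 in Hsp90b1. The CARE began 23 bases before the start in Asns, 110 in Atf3 and 193 in Chac1. Among the 15 members with a window that fell in diabetic kidneys, 6 (40.0%) held ERSE letters, and among the 16 that did not pass the test 3 did (18.8%). These sets differ in role, and ERSE letters were found in 7 of 12 chaperone genes and 0 of 8 genes of the ATF4 group. Of the chaperones that did not pass, Calr and Dnajc3 held ERSE letters and Dnajb9 did not. Derl1, Hyou1, Manf, Sec61a1 and Atf6 had no window, and all but Atf6 fell. Whether ERSE letters go with the fall apart from role was not tested.

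Levels are given as log2 of the array signal minus the 75th percentile of the same array, so that 0 marks the 75th percentile. A probe's level depends on its sequence, so levels were compared between groups and not between genes. The 24 arrays lay on 3 slides, each with 3 enarodustat, 3 DKD and 2 sham arrays. By row on the slide, all 9 enarodustat arrays lay in the second row. The DKD arrays were split, with 3 in that row and 6 in the other, and all 6 sham arrays shared the first row. Row and group therefore cannot be told apart between enarodustat and sham, whereas DKD and sham could be compared within the first row. Between enarodustat and DKD, row and group overlap in part, since only 3 DKD arrays share the second row. Between 37716 and 44732 of 59305 spots per array were well above background, and none was saturated. Nothing in the labels says more than that each array is a replicate of its group, and p-values measure the spread between these arrays, whose number limits the precision.

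The first comparison asked how diabetic kidneys differed from sham. In DKD kidneys 19 of 36 members (52.8%) fell and none rose at an adjusted p under 0.05 (limma, Benjamini-Hochberg over all genes tested), where 6.13% of all genes fell and 5.47% rose. The median change over the 36 members was -0.40 on the log2 scale, beside -0.01 over all genes. The falls were in the chaperone group (11 of 14), the degradation group (4 of 7), the membrane channel (2 of 3) and the ATF4 group (2 of 8), with 0 of 4 among the sensors. The median change was -0.48 for chaperones, -0.59 for degradation genes, -0.39 for the channel, -0.09 for the sensors and -0.07 for the ATF4 group. At an unadjusted p under 0.05 the count was 25, all lower, where 24.8% of all genes had such a p and 12.8% had it with a lower level in DKD. For 11 members every DKD array lay below every sham array, which held for 1.92% of all genes. All 19 that fell had a negative difference on each of the 3 slides. When the first slide row was taken alone, 19 members fell, with Derl2 and Sec61b in place of Canx and Hyou1. Of all 17736 genes, 1048 fell and 906 rose in that row. The slides and the row are parts of the arrays that gave the calls, so neither is separate support. With slide as a fixed block the 19 still passed, and Derl2, Dnajc3 and Atf6 passed as lower too.

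**Figure D1:**
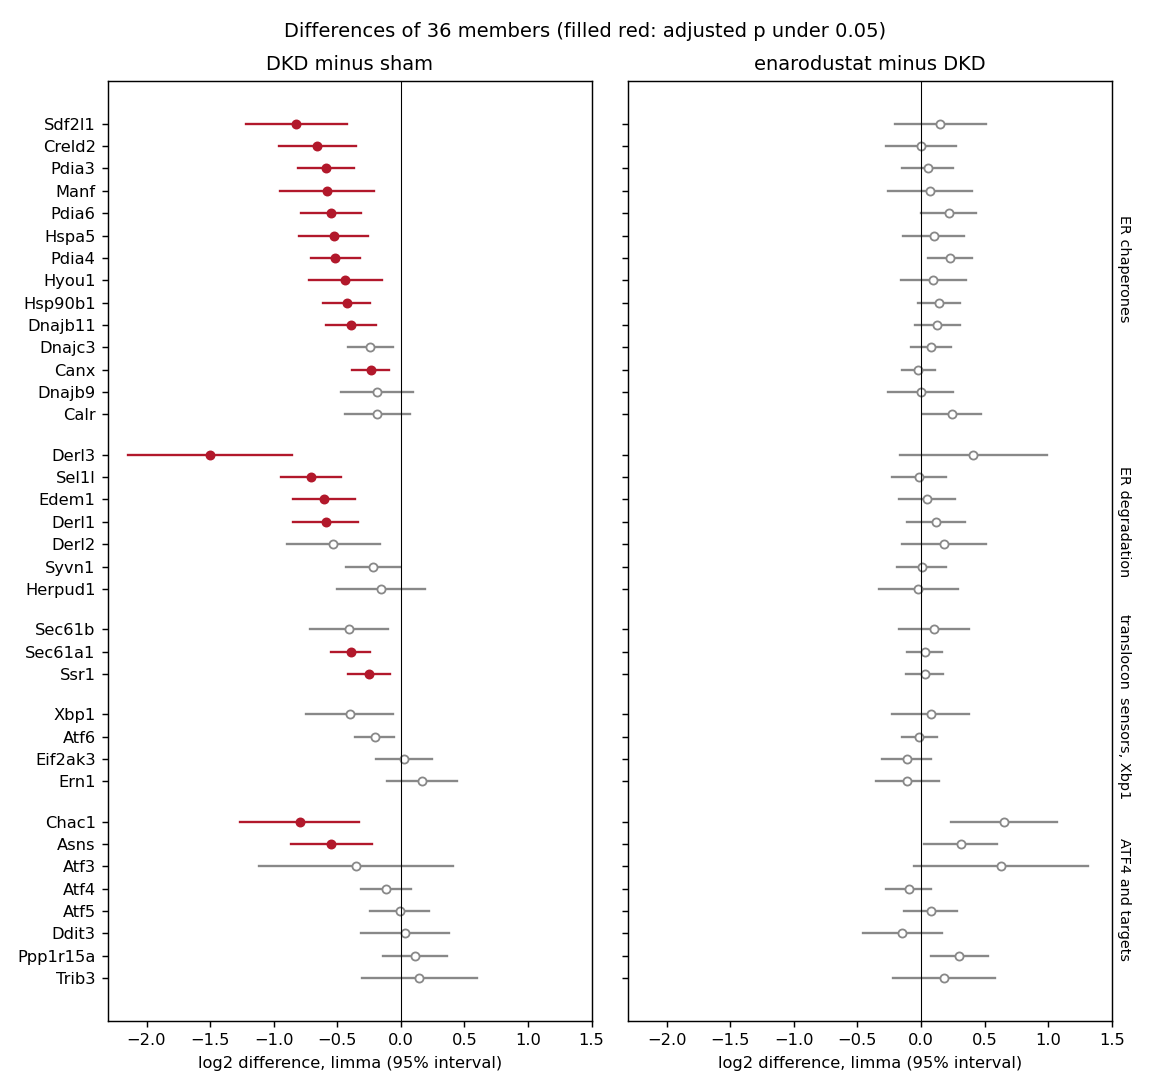
Log2 differences of the 36 members with 95% intervals (limma), DKD minus sham on the left and enarodustat minus DKD on the right, grouped by role. Filled red points passed at an adjusted p under 0.05. On the left 19 points are red and all lie below 0, and on the right none is red.

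Among the chaperones, Hspa5 encodes BiP, the Hsp70 of the ER lumen, which binds unfolded chains and holds the sensors inactive. Its level in DKD kidneys had a lowest value of 4.88, a median of 5.41 and a highest of 5.60, against 5.73, 5.84 and 5.97 in sham kidneys. The groups did not overlap. Hspa5 averaged 5.32 ± 0.26 in DKD and 5.85 ± 0.10 in sham (SD, n = 9 and 6), a difference of -0.53 ± 0.13 (SE) or 1.44-fold lower (adjusted p = 0.00985). Within slides 1, 2 and 3 its difference was -0.59, -0.33 and -0.67. The other probes for Hspa5 had differences of -0.70 and -0.73.

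Hsp90b1 encodes GRP94, the Hsp90 of the ER. Its level ran between 4.92 and 5.39 (median 5.28) in DKD and between 5.52 and 5.81 (median 5.70) in sham, again without overlap. The difference was -0.42 ± 0.09 (SE, adjusted p = 0.00292). It missed the threshold, at an adjusted p of 0.0826, in the authors' deposited values, where its difference was -0.38. Sdf2l1, which works with the Hsp40 of the ER to keep chains soluble, had levels of -1.45, -1.03 and -0.36 (lowest, median, highest) in DKD against -0.61, -0.22 and 0.11 in sham. The highest DKD array overlapped the sham range, and all 9 DKD arrays lay below the sham mean. Its difference of -0.82 ± 0.19 (SE, adjusted p = 0.00649) was the largest fall among the 14 chaperones. Creld2, a disulfide isomerase that also leaves the cell under ER stress, ran between 3.65 and 4.63 (median 4.18) in DKD and between 4.70 and 5.03 (median 4.76) in sham. The groups did not overlap, and the difference was -0.66 ± 0.15 (SE, adjusted p = 0.00481).

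The disulfide isomerases moved together. These enzymes form and rearrange disulfide bonds in new chains. Pdia4 ran between -0.29 and 0.22 (median 0.06) in DKD and between 0.41 and 0.65 (median 0.59) in sham, a difference of -0.52 ± 0.09 (SE, adjusted p = 0.000761). Pdia3, which serves glycoproteins held by calnexin and calreticulin, ran between 3.25 and 3.65 in DKD and between 3.92 and 4.34 in sham, a difference of -0.59 ± 0.11 (SE, adjusted p = 0.000861). Pdia6 differed by -0.55 ± 0.12 (SE, adjusted p = 0.00292). None of the 3 overlapped between groups, and their differences within slides lay between -0.43 and -0.62.

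The remaining chaperones gave smaller or less stable differences. Dnajb11, an Hsp40 partner of BiP, fell by 0.39 on the log2 scale (adjusted p = 0.00854) with no overlap. Manf, a secreted factor that binds BiP, differed by -0.58 ± 0.18 (SE, adjusted p = 0.0351), Hyou1, the large Hsp70 that exchanges the nucleotide of BiP, by -0.44 ± 0.14 (SE, adjusted p = 0.0408), and Canx, the lectin calnexin, by -0.24 ± 0.07 (SE, adjusted p = 0.0307). These 3 calls depended on single arrays. That of Manf was lost without any of sham 1, 2, 3, 5, 6 or DKD 2, 5, 7, 8 (adjusted p up to 0.0730), that of Hyou1 without any of sham 1, 2, 4, 5, 6 or DKD 1, 2, 3, 8, 9 (up to 0.111), and that of Canx without any of sham 1, 2, 4 or DKD 2, 7 (up to 0.0818). Canx also missed the threshold in the authors' deposited values, with a difference of -0.20 and an adjusted p of 0.326. Hyou1 differed by -0.27 there, with an adjusted p of 0.0244.

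The other 3 chaperones did not pass. Dnajc3, the Hsp40 that also inhibits the eIF2 kinases, differed by -0.24 (adjusted p = 0.0721, and 0.0494 with slide as a block), Dnajb9, an Hsp40 that restrains IRE1, by -0.19 (adjusted p = 0.439), and Calr, the lectin calreticulin, by -0.18 (adjusted p = 0.381). All 14 chaperone differences were negative. The other probe for Dnajb9 differed by -0.37 (limma, adjusted p = 0.0628 over all probes tested). Between enarodustat and sham that probe differed by -0.45 (limma, adjusted p = 0.0162), and the main probe by -0.19 (0.392).

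**Figure D2:**
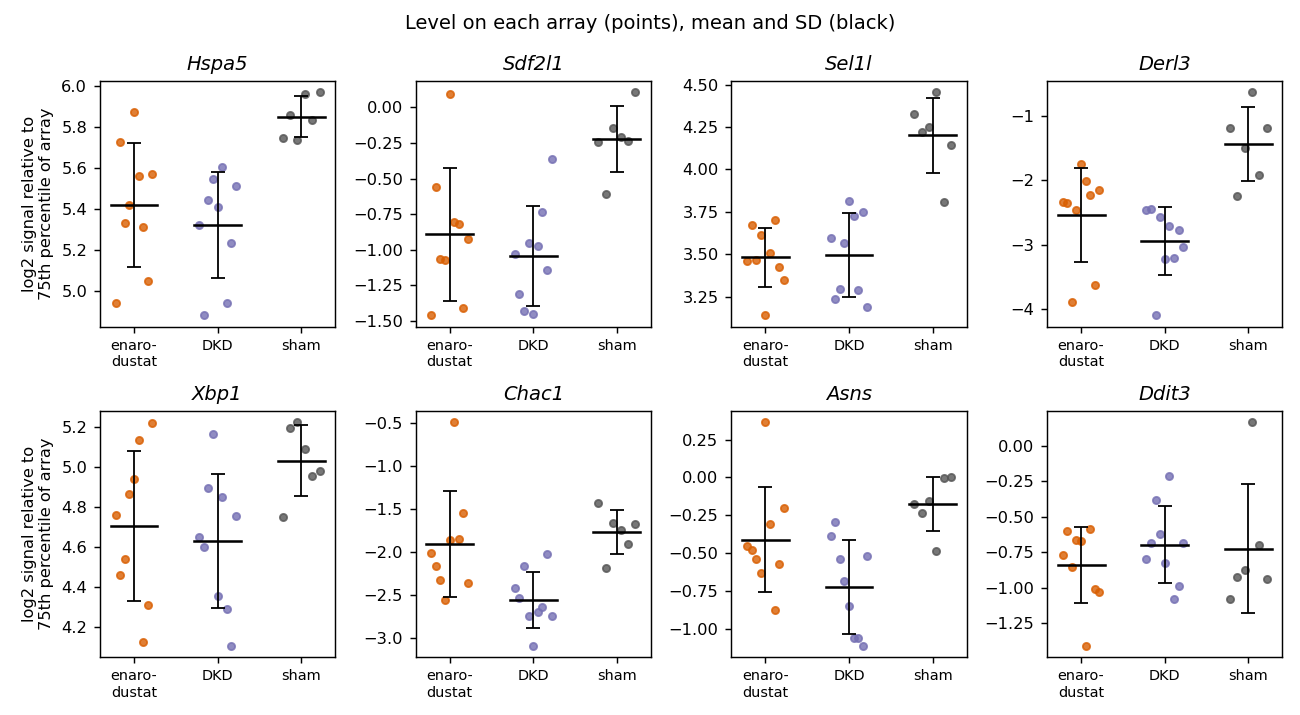
Level of 8 members on every array, with the mean and SD in black, as log2 signal over the array's own 75th percentile. Hspa5 and Derl3 in DKD lie below every sham array, Sdf2l1 and Sel1l in DKD overlap sham only at the edge, and Xbp1 and Ddit3 overlap widely.

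In ER-associated degradation, misfolded chains are recognised by their trimmed sugars, passed through a membrane complex and ubiquitinated. Derl3, a membrane protein of that complex, had levels of -4.09, -2.77 and -2.44 (lowest, median, highest) in DKD against -2.24, -1.34 and -0.63 in sham. The groups did not overlap, although the highest DKD and lowest sham arrays lay close together. The difference of -1.50 ± 0.31 (SE), or 2.83-fold lower, had an adjusted p of 0.00263 and was the largest of the 36. It was -1.29, -1.76 and -1.46 within slides 1, 2 and 3, and -0.77 in the authors' deposited values.

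Sel1l encodes the adaptor that holds the ubiquitin ligase of this pathway in place. Its level ran between 3.19 and 3.81 (median 3.57) in DKD and between 3.81 and 4.45 (median 4.23) in sham. The ranges met at the edge, and all 9 DKD arrays lay below the sham mean. Its difference of -0.71 ± 0.11 (SE) had the smallest adjusted p of the 36 members, 0.000327. Edem1, which directs mannose-trimmed glycoproteins to the pathway, ran between 0.49 and 1.23 in DKD and between 1.25 and 1.82 in sham, a difference of -0.61 ± 0.12 (SE, adjusted p = 0.00153). Derl1, a relative of Derl3, ran between 2.49 and 3.22 in DKD and between 3.28 and 3.53 in sham, a difference of -0.59 ± 0.12 (SE, adjusted p = 0.00267). Neither Edem1 nor Derl1 overlapped between groups. The other probe for Sel1l differed by -0.91, and that for Edem1 also had a negative difference.

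The other members of the degradation group did not pass. Derl2 differed by -0.53 (adjusted p = 0.0518). It passed in the deposited values with -0.47 (adjusted p = 0.00599), with slide as a block (adjusted p = 0.0399), and without any of DKD 4, DKD 9, enarodustat 5 or enarodustat 7. Syvn1, which encodes the ubiquitin ligase HRD1, differed by -0.22 (adjusted p = 0.187, and 0.0458 without DKD 5), and Herpud1, which recruits it, by -0.16 (adjusted p = 0.623). Herpud1 changed sign between slides, with 0.15, -0.18 and -0.44 on slides 1, 2 and 3.

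In the membrane channel through which new chains enter the ER, the pore subunit gene Sec61a1 ran between 3.63 and 3.92 (median 3.79) in DKD and between 4.02 and 4.29 (median 4.17) in sham without overlap. Its difference was -0.39 ± 0.08 (SE, adjusted p = 0.00129). The mean over all its probes differed by -0.22 (adjusted p = 0.0752), since its other probes differed by -0.17 and -0.10. Ssr1, a subunit of the translocon-associated complex, differed by -0.25 ± 0.08 (SE, adjusted p = 0.0443). That call was lost without any of 14 single arrays (sham 1 to 5, DKD 1, 2, 5, 7, 8 and enarodustat 2, 3, 4, 8), with an adjusted p up to 0.111. Ssr1 also missed the threshold in the deposited values, where its difference was -0.14 (adjusted p = 0.112). Sec61b, the small channel subunit, differed by -0.40 and did not pass (adjusted p = 0.0801), while it passed in the deposited values with -0.36 (adjusted p = 0.00167) and without DKD 4 or enarodustat 5 (adjusted p = 0.0418 and 0.0417).

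None of the sensor genes passed between DKD and sham in the fit without slide. Xbp1, whose array signal does not separate the spliced form, had levels of 4.11, 4.65 and 5.17 (lowest, median, highest) in DKD against 4.75, 5.04 and 5.22 in sham. The groups overlapped over most of the sham range, with a difference of -0.40 ± 0.17 (SE, adjusted p = 0.122). Atf6 differed by -0.20 ± 0.07 (SE, adjusted p = 0.0762), and it passed as lower with slide as a block (adjusted p = 0.0407) and without sham 6 (adjusted p = 0.0376). Ern1 differed by 0.17 ± 0.13 (SE, adjusted p = 0.491) and Eif2ak3 by 0.03 ± 0.11 (SE, adjusted p = 0.917). Ern1 was the one member to pass as higher in DKD when the first slide row was taken alone (0.30, adjusted p = 0.0485).

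**Figure D3:**
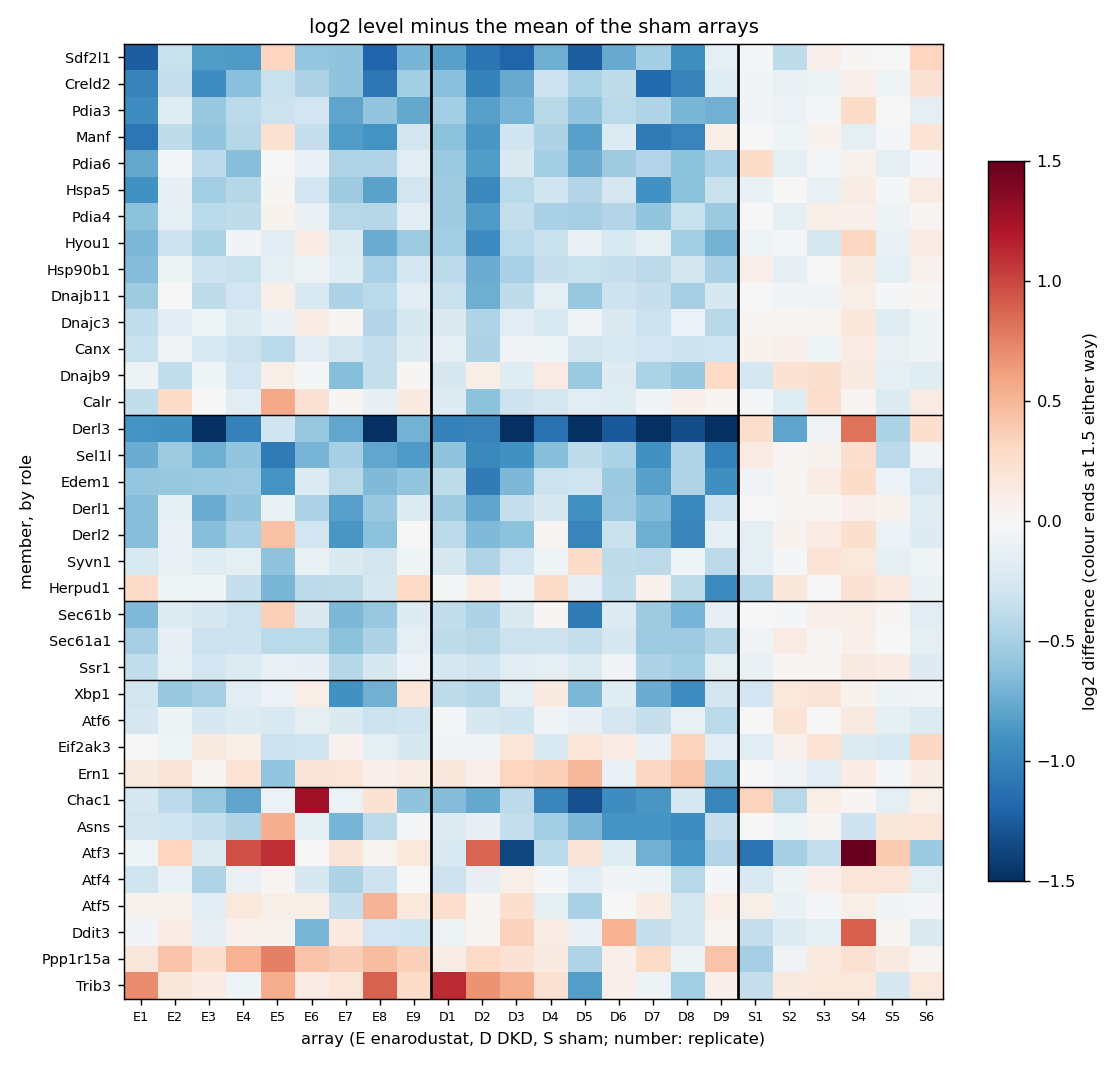
Log2 level of each member on each array minus the mean of the sham arrays, with enarodustat (E), DKD (D) and sham (S) arrays from left to right and lines between roles in the order chaperones, degradation, channel, sensors, ATF4 group. Colours end at 1.5 either way. The upper 3 blocks are mostly blue in the DKD and enarodustat columns, and the lowest block is mixed.

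The ATF4 group did not move as one. Chac1, which breaks down glutathione and is induced through ATF4, had levels of -3.09, -2.65 and -2.02 (lowest, median, highest) in DKD against -2.18, -1.71 and -1.43 in sham. All 9 DKD arrays lay below the sham mean and the ranges overlapped at the edge. The difference was -0.79 ± 0.23 (SE, adjusted p = 0.0236). It was lost without sham 1 or sham 3 (adjusted p up to 0.0605) and came to -0.41 in the deposited values (adjusted p = 0.0420).

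Asns encodes asparagine synthetase, the textbook amino acid response gene. Its level ran between -1.11 and -0.29 (median -0.69) in DKD and between -0.49 and 0.00 (median -0.17) in sham. The difference was -0.55 ± 0.16 (SE, adjusted p = 0.0232), with -0.20, -0.54 and -0.90 within slides 1, 2 and 3. The call was lost without sham 5 or sham 6 (adjusted p up to 0.0563) and in the mean over probes (-0.42, adjusted p = 0.0618).

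The other 6 genes of the group did not pass. Atf4 itself differed by -0.12 ± 0.10 (SE, adjusted p = 0.483). Ddit3, which encodes the death-linked factor CHOP, differed by 0.03 ± 0.17 (SE, adjusted p = 0.944). Its DKD levels had a lowest value of -1.08, a median of -0.69 and a highest of -0.21, against -1.08, -0.90 and 0.17 in sham, so the DKD range lay within that of sham. Trib3, a pseudokinase induced by CHOP, differed by 0.15 ± 0.22 (SE, adjusted p = 0.745), with 0.89, -0.33 and -0.13 on slides 1, 2 and 3. Ppp1r15a, which encodes GADD34, the subunit that returns eIF2 to its active state, differed by 0.11 ± 0.12 (SE, adjusted p = 0.634). Atf5 differed by -0.01 (adjusted p = 0.972) and Atf3 by -0.35 ± 0.37 (SE, adjusted p = 0.622).

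Atf3 and Ddit3 were both highest in sham on a single array. In sham kidneys Atf3 had a lowest level of -3.52, a median of -2.84 and a highest of -0.30, the last on sham 4, which was also the highest sham array for Ddit3. The mean of 14 immediate early genes, which respond to handling and to dissection within minutes, ran between -0.32 and 0.26 over the DKD arrays relative to the sham mean, and it was 0.69 on sham 4 and -0.81 on sham 1. The part of this in the Atf3 and Ddit3 values was not tested. No immediate early gene passed between any groups.

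The second comparison asked whether enarodustat in the feed changed these genes in diabetic kidneys. None of the 36 members passed in either direction between enarodustat and DKD, where 0.716% of all genes passed, 0.609% as higher and 0.107% as lower (limma). No member was without overlap between these groups, which held for 0.135% of all genes upward and 0.0113% downward. At an unadjusted p under 0.05 the count was 6, namely Pdia4, Pdia6, Calr, Chac1, Asns and Ppp1r15a, all higher with enarodustat, where 10.9% of all genes had such a p and 6.46% had it with a higher level. The median change was 0.08, beside 0.00 over all genes. By role it was 0.10 for chaperones, 0.05 for degradation genes, 0.03 for the channel, -0.06 for the sensors and 0.24 for the ATF4 group. The DKD arrays stand in both comparisons, so an array that is low in DKD pushes the first difference down and the second up. The 95% interval of the difference lay within 1 log2 unit of 0 for 34 of 36 members, the exceptions being Atf3 and Chac1. Between DKD and sham, where 19 members fell, the interval lay within that bound for 32 of 36. The bound therefore does not show absence of change. In the second slide row alone, where 9 enarodustat arrays met 3 DKD arrays, no member passed, and only 11 of all 17736 genes did.

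The widest intervals were in the ATF4 group. Chac1 had levels of -2.56, -2.02 and -0.49 (lowest, median, highest) with enarodustat against -3.09, -2.65 and -2.02 in DKD, and 8 of 9 enarodustat arrays lay above the DKD mean. The difference was 0.65 ± 0.20 (SE, 95% interval 0.23 to 1.07, adjusted p = 0.171). Its highest array was enarodustat 6, and the next highest had -1.55. Atf3 ran between -2.61 and -1.32 (median -2.26) with enarodustat and between -3.79 and -1.55 (median -2.82) in DKD, a difference of 0.63 ± 0.33 (SE, 95% interval -0.05 to 1.32, adjusted p = 0.515). Asns differed by 0.31 ± 0.14 (SE, adjusted p = 0.410), with -0.08, 0.67 and 0.35 within slides 1, 2 and 3.

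Ppp1r15a ran between 1.53 and 2.12 (median 1.79) with enarodustat and between 0.91 and 1.79 (median 1.50) in DKD. All 9 enarodustat arrays lay above the DKD mean, with a difference of 0.30 ± 0.11 (SE, adjusted p = 0.270). Atf4 differed by -0.10 (adjusted p = 0.791) and Ddit3 by -0.15 (adjusted p = 0.836).

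Among the folding enzymes, Pdia4 ran between -0.06 and 0.60 (median 0.18) with enarodustat and between -0.29 and 0.22 (median 0.06) in DKD, a difference of 0.23 ± 0.08 (SE, 95% interval 0.06 to 0.40, adjusted p = 0.270). Pdia6 differed by 0.22 ± 0.10 (SE, adjusted p = 0.449) and Calr by 0.24 ± 0.11 (SE, adjusted p = 0.410). Hspa5 differed by 0.10 with a 95% interval of -0.14 to 0.34, Creld2 by 0.00 with an interval of -0.27 to 0.27, and Sel1l by -0.01 with an interval of -0.23 to 0.20.

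**Figure D4:**
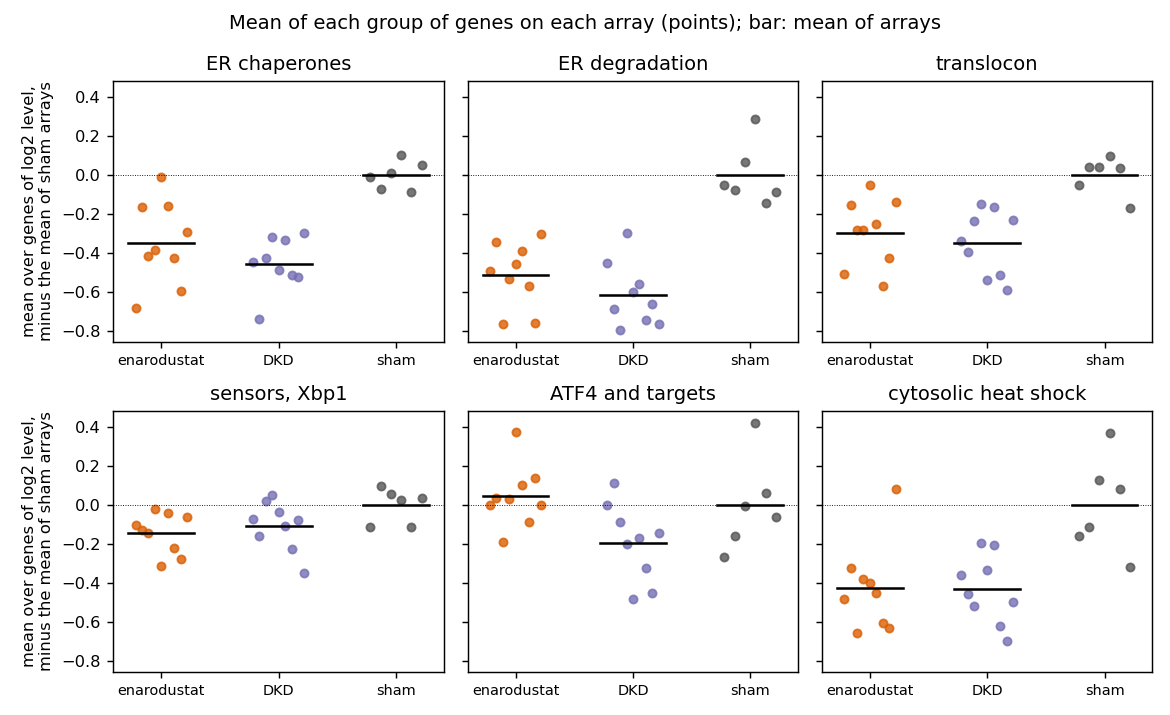
Mean over the genes of each role of the log2 level minus the sham mean, 1 point per array, with the bar at the mean of the arrays. The chaperone means lie between -0.68 and -0.01 with enarodustat, between -0.74 and -0.30 in DKD and between -0.09 and 0.10 in sham. The ATF4 group overlaps in all 3 groups, and the cytosolic heat shock genes are shown for comparison.

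The third comparison set treated diabetic kidneys against sham. Here 13 members fell and 1 rose, where 6.75% of all genes fell and 8.74% rose (limma), and the median change was -0.26, beside -0.02 over all genes. The sham arrays stand in this and in the first comparison, and the enarodustat arrays in this and in the second. Sel1l ran between 3.14 and 3.70 with enarodustat and between 3.81 and 4.45 in sham, a difference of -0.72 ± 0.11 (SE, adjusted p = 0.000207). Creld2 differed by -0.66 ± 0.15 (SE, adjusted p = 0.00396) and Pdia3 by -0.54 ± 0.11 (SE, adjusted p = 0.00159). These 3 were the members whose enarodustat and sham ranges did not overlap, all downward, which held for 2.03% of all genes downward and 2.91% upward.

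The other genes that fell were Edem1 (-0.56), Derl1 (-0.47), Derl3 (-1.09), Sdf2l1 (-0.67), Hspa5 (-0.43), Hsp90b1 (-0.28), Pdia4 (-0.29), Canx (-0.26), Sec61a1 (-0.37) and Atf6 (-0.22). In the authors' deposited values Canx (limma, adjusted p = 0.165), Hsp90b1 (0.203) and Atf6 (0.0742) missed the threshold, while Derl2, Manf, Pdia6 and Sec61b passed as lower. In the mean over probes Sec61a1 missed it (-0.18, adjusted p = 0.134) and Manf passed as lower. Ppp1r15a rose, with levels between 1.53 and 2.12 with enarodustat and between 0.87 and 1.60 in sham, a difference of 0.41 ± 0.12 (SE, adjusted p = 0.0227). All 9 enarodustat arrays lay above the sham mean, although the ranges overlapped. Chac1 differed by -0.14 (adjusted p = 0.738) and Asns by -0.23 (adjusted p = 0.337), neither passing. With slide as a fixed block, Hyou1 (adjusted p = 0.0450), Manf (0.0455) and Ssr1 (0.0374) passed as lower too. Since row and group cannot be told apart here, a fit with the slide row as a term, in which the DKD arrays alone carry the row effect, left 5 members lower (Creld2, Derl1, Hspa5, Manf and Sec61a1) and none higher. Of all 17736 genes, 352 were lower and 537 higher in that fit. The difference of Ppp1r15a was 0.22 in that fit (adjusted p = 0.512). Without single arrays, calls were lost for Ppp1r15a (sham 1 or 2, adjusted p up to 0.0728), Derl3 (sham 4, 0.0603), Hspa5 (sham 2, 4, 6 or enarodustat 1, 8, up to 0.0612), Hsp90b1 (8 arrays, up to 0.0864), Pdia4 (9 arrays, up to 0.0828) and Atf6 (15 arrays, up to 0.142).

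Genes of the same pathways outside the 36 were counted from lists named by function. Beside them, 6.13% of all genes fell and 5.47% rose in DKD against sham, with a median change of -0.01. Of 22 other ER folding genes, 6 fell in DKD against sham and none rose, with a median change of -0.24. They included Sil1 (-0.51), a nucleotide exchange factor of BiP, P4hb (-0.50), the main disulfide isomerase, Txndc11 (-0.49) and Erp44 (-0.47). Of 20 other degradation genes 6 fell, with a median of -0.29, among them Ufd1 (-0.46), which helps extract substrates, and Edem2 (-0.42), a relative of Edem1. Of 22 genes of translocation and glycosylation 7 fell, with a median of -0.34, among them the signal peptidase genes Sec11a (-0.52) and Spcs2 (-0.46) and the oligosaccharyltransferase gene Rpn1 (-0.42). Of 19 genes of ER-to-Golgi transport 3 fell, with a median of -0.19, led by the cargo receptor Lman2 (-0.64). No gene of these 4 lists rose in DKD.

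Against DKD, single genes of these lists were higher with enarodustat, where 0.609% of all genes were. With the slide row as a term, 19 of all 17736 genes were higher, and the genes named here were not followed in that fit. Ero1a, the oxidase that recharges disulfide isomerases and a known hypoxia-inducible gene, averaged 2.28 ± 0.15 with enarodustat and 1.89 ± 0.08 in DKD (SD, n = 9 each), a difference of 0.39 ± 0.07 (SE, adjusted p = 0.00333). Kdelr3, a receptor that returns ER residents, differed by 0.69 ± 0.14 (SE, adjusted p = 0.0175). No other gene of the 4 lists passed between these groups.

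Of 18 further regulators of both responses, 2 rose and 3 fell in DKD, where 5.47% of all genes rose and 6.13% fell. With so few genes, these counts are not read as a result about the regulators as a set. Creb3l3, a membrane-bound factor related to ATF6, averaged -3.38 in DKD and -5.82 in sham and passed as higher (adjusted p = 0.00916). It was well above background on all 9 DKD arrays and on 2 of 6 sham arrays, so its sham level lay near background and no fold is given. Eif2ak1, the heme-regulated eIF2 kinase, fell by 0.38 on the log2 scale (adjusted p = 0.00583), Atf6b by 0.37 (adjusted p = 0.00831), and Nfe2l2 rose by 0.32 (adjusted p = 0.0276).

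Of 33 further ATF4 targets tested, 3 rose and 2 fell in DKD against sham, with a median of 0.00, shares near those of all genes (5.47% higher and 6.13% lower). Gdf15, a stress hormone, rose by 0.90 (adjusted p = 0.0135), Stc2 by 0.62 (adjusted p = 0.0310) and Slc3a2, the heavy chain of amino acid transporters, by 0.59 (adjusted p = 9.35e-05), while the glycine transporter gene Slc6a9 fell by 0.74 (adjusted p = 0.00578). With enarodustat against DKD, 2 of 33 were higher, where 0.609% of all genes were. Neither was followed in the fit with the slide row as a term. Ddit4, an inhibitor of mTORC1 that is also a known hypoxia-inducible gene, averaged 4.57 ± 0.55 with enarodustat and 3.56 ± 0.46 in DKD (SD, n = 9 each), a difference of 1.01 ± 0.22 (SE, adjusted p = 0.0320). Stc2, a secreted glycoprotein known to respond to ER stress and to hypoxia, averaged -2.06 ± 0.50 and -2.89 ± 0.18 in the same groups, a difference of 0.82 ± 0.17 (SE, adjusted p = 0.0188). The amino acid synthesis genes Psat1 and Phgdh differed by 0.47 (adjusted p = 0.344) and 0.07 (adjusted p = 0.950), neither passing.

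Chaperones outside the ER were counted for comparison. Of 18 cytosolic heat shock genes, which belong to the separate response driven by HSF1, 9 fell and none rose, with a median change of -0.47, beside -0.48 for the ER chaperones. Hsp90aa1 differed by -0.87 ± 0.12 (SE, adjusted p = 8.37e-05), and Hsph1, Dnaja1 and Hsp90ab1 by -0.81, -0.73 and -0.70. None of the 18 passed between enarodustat and DKD. Of 12 mitochondrial chaperone and protease genes 1 fell, Hspd1 (-0.34), with a median of -0.14. Of all genes, 6.13% fell in DKD against sham.

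Markers of cell types moved beside these results. In DKD against sham, 6.13% of all genes fell and 5.47% rose. Of 11 markers of plasma and B cells (14 were listed), 3 fell in DKD against sham (Jchain -1.78, Pou2af1 -1.21, Cd79b -1.14) and 8 did not pass, with a median change of -0.60. Plasma cells have a large ER and are known for high Derl3, Sdf2l1 and Hsp90b1, but the list does not separate them from B cells. The mean of the list relative to sham lay between -0.97 and 0.23 with enarodustat, between -1.10 and -0.08 over DKD arrays and between -0.70 and 0.71 over sham arrays. Jchain averaged 2.26 ± 1.02 with enarodustat, 1.21 ± 0.97 in DKD and 2.99 ± 1.09 in sham (SD, n = 9, 9 and 6). Of 16 proximal tubule markers, 5 fell and 2 rose in DKD, and their mean lay between -0.33 and 0.05. Of 14 collecting duct markers 7 rose and none fell. Of 10 thick limb and distal markers, 3 rose, among them Calb1 (0.77) and Slc12a1 (0.41), and 2 fell, Cldn10 (-0.65) and Umod (-0.49), with a median change of 0.23. Macrophage markers gave 1 fall of 11 (Csf1r, -0.89), podocyte and endothelial markers 1 rise each, and fibroblast markers none. With enarodustat against DKD, 5 of 10 endothelial markers were higher, where 0.609% of all genes were, and no other marker passed. These markers were not followed in the fit with the slide row as a term. The part of these shifts in cell make-up in the members' differences was not tested.

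Within groups, 6 pairs of members were followed across mice, 18 relations in all. With enarodustat, Hspa5 and Pdia4 varied together (Pearson r = 0.938, exact permutation p = 0.000185, adjusted 0.00332; Spearman rho = 0.95, adjusted p = 0.00635, exact permutation, n = 9). Without the 2 arrays farthest from the median of Hspa5, r was 0.844. Hspa5 and Hsp90b1 had r = 0.874 (adjusted p = 0.0126, exact permutation) and rho = 0.75 (adjusted p = 0.120), with r = 0.821 without the 2 farthest arrays. Atf3 and Ppp1r15a, both known immediate targets of stress signals, had r = 0.843 (adjusted p = 0.0126, exact permutation) and rho = 0.80 (adjusted p = 0.120), and r = 0.596 without the 2 farthest. In DKD the pair of Hspa5 and Pdia4 had r = 0.632 (adjusted p = 0.226, exact permutation) and -0.340 without the 2 farthest, so that the relation there rested on those arrays. No relation passed in DKD or in sham, and differences in r between groups were not tested. Arrays of 1 slide shared part of their variation (median r of deviations over all genes 0.19 within and -0.09 between slides).

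**Figure D5:**
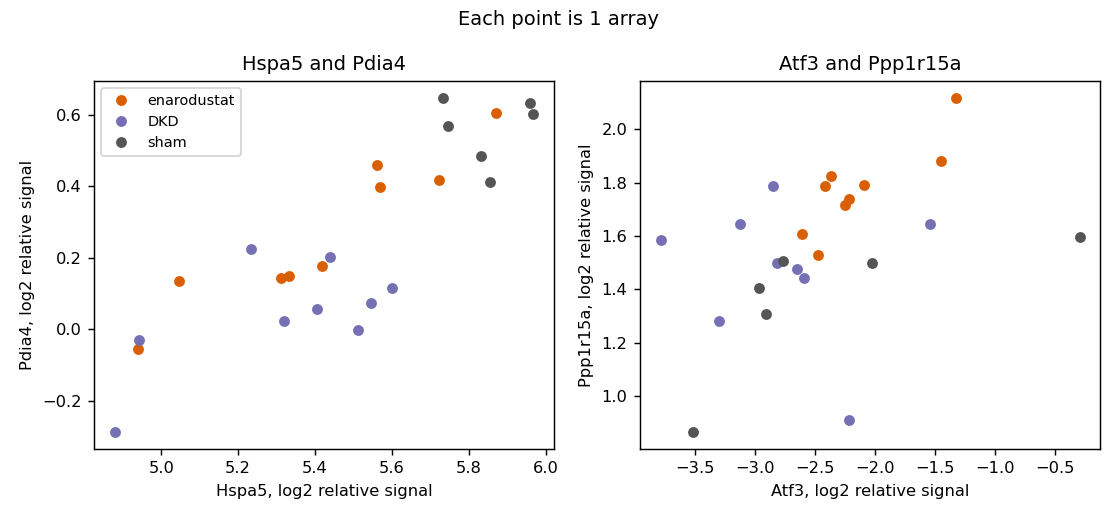
Levels of 2 pairs of members on each array, as log2 signal over the array's own 75th percentile. With enarodustat (orange) the points of Hspa5 and Pdia4 lie along a rising line, those of DKD (purple) and sham (grey) are shown beside them, and sham 4 stands at the far right for Atf3.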

How the data were processed

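Array signals of 24 kidneys were taken from the deposited scanner files, whose intensity column holds the signal after background subtraction by Agilent Feature Extraction (version 12.1.1.1 per the file headers, 11.5.1.1 per the submitters' processing notes). The authors also deposited a table of log2 values for 31409 probes, made with limma per the submitters' processing notes, which was used as an alternative. It differed by over 0.05 from normexp with an offset of 50 and quantile normalization of the median signals in 762 of 753816 values.

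Spots of 1 probe were averaged, control spots and outlier flags were left out, and log2 signals were set relative to the 75th percentile of each array. Of 56605 probes, 32994 carried a gene name, for 22911 genes, and the brightest probe over all arrays stood for a gene. A gene was tested if its probe passed the scanner's background flag on 6 or more of the 24 arrays. One limma fit (version 3.58.1, R 4.3.3) held all 24 arrays with group as the factor, and p-values were two-sided and adjusted by Benjamini-Hochberg over 17736 genes with a threshold of 0.05. The fit was tested on simulated data with known changes between DKD and sham. It recovered 48 of 100 changes of 0.5 log2 units and 78 of 100 changes of 1 unit, with 8 false calls among 134. The simulated noise was independent between genes and arrays, without slide or row effects, and the changes were placed in both alloxan groups. These rates therefore need not hold for the real arrays. Correlations used exact permutation tests, two-sided (scipy 1.17.1).

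The members, lists and tests were chosen with earlier results of these data known. Every member is named. Of each other list the passing genes were counted in each comparison, and up to 4 with the largest change were open to naming. Creb3l3 and other genes are shown from those lists, and Psat1 and Phgdh were picked after their values were seen. Replicate numbers were not taken as pairing the mice in the main fit. Deviations of same-numbered arrays correlated above 0.1 in 10 of 21 pairs (median r 0.10). For differently numbered arrays this held in 49 of 168 pairs (median r -0.02). Slides were not held apart in these counts, so they do not settle whether the numbers pair mice. Alternatives were other normalizations, filters, probe rules, slide and row terms, a replicate block, array weights, and leaving out each array. Slide rows taken alone were added after seeing the data.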

Additional observations from a re-analysis of the deposited data

Results flagged for a closer look

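In 10 of the 108 sets of values (36 members in 3 groups), the highest or lowest array stood apart from its group beyond the 95% limit of Dixon's gap test, which chance alone exceeds in about 1 set in 20. Each had a single such array. Among enarodustat arrays, Chac1 stood at -0.49 on enarodustat 6, where the next value was -1.55. On enarodustat 5, Sec61b was high at 5.37 (next 4.82), Ern1 low at -1.65 (next -1.02) and Syvn1 low at 3.57 (next 3.90).

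Among DKD arrays, DKD 2 was the lowest for Hsp90b1, at 4.92 (next 5.18), and for Pdia4, at -0.29 (next -0.03), and DKD 3 was the lowest for Derl3, at -4.09 (next -3.22). Among sham arrays, sham 4 was the highest for Ddit3, at 0.17 (next -0.70), and for Pdia3, at 4.34 (next 4.06), and sham 6 was the lowest for Derl1, at 3.28 (next 3.47). The DKD falls of Hsp90b1, Pdia4, Derl3, Pdia3 and Derl1 kept their sign and stayed past the threshold when any 1 array was left out.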

How the results depend on the processing

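Between DKD and sham, the 19 falls kept their sign under every alternative run, 13 stayed past the threshold without any 1 array, 13 under all other settings and 11 under both. The count of members lower lay between 14 and 21 with 1 array left out, and between 15 (mean over probes) and 24 (array weights) otherwise. Of the members that had not passed, 6 passed somewhere (Atf6, Derl2, Dnajc3, Ern1, Sec61b and Syvn1). The cause of each move below was not tested. With the first slide row alone 1 member was higher (Ern1). Between enarodustat and DKD no member passed under any alternative, with a median change between 0.02 and 0.12. The genes passing there numbered 127 (108 higher, 19 lower), 71 to 128 with 1 array left out, 83 with no filter, 47 with only both groups fitted, 20 with the slide row as a term and 11 in the second row alone. The split was 119 higher and 46 lower (72.1% higher) after normexp on median signals and 105 and 46 (69.5%) in the deposited values, against 85.0% higher in the main setting. Between enarodustat and sham, 14 calls kept their sign throughout and 2 stayed past the threshold under all alternatives. Members lower there numbered 8 to 15 and members higher 0 to 1 with 1 array left out. The slide row as a term gave 889 genes, 5 members lower, 0 higher and a median of -0.39, and array weights gave 5119 genes and 23 members lower. With the replicate block, which takes the replicate numbers as pairing, 66 genes passed between enarodustat and DKD, 8 members were lower and 0 higher between enarodustat and sham, and 1461 genes and 16 members lower passed between DKD and sham (2058 and 19 without it). The planned normexp on mean signals was not run, since the files used here hold median signals. Every member was well above background on all arrays, so dimness bounds none of them.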
